A study of Mus musculus with 4 samples.

Results

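The cytosolic ribosomal protein genes encode the proteins of the ribosome that translates cytoplasmic mRNA, and their transcripts were followed in whole spleens of newborn mice whose mothers had received carbon nanoparticles or water through the nose. Genes were chosen by name: symbols made of Rpl or Rps and a number, with an optional a, l, x or y at the end, together with Rplp0, Rplp1, Rplp2 and Rpsa, without the Rps6k kinases and without genes named as pseudogenes. The name table held 83 such genes, 80 of them had a matched probe on the array among 20284 matched genes in all, and Rpl32l, Rpl6l and Rps23 had none. Detected here means well above background on every array, which held for 78 of the 80 genes and for 13933 of all genes; Rpl3l and Rpl10l were above background on no array. The 80 genes comprised 43 of the large subunit, 3 of its acidic stalk, 29 of the small subunit and 5 paralogs (Rpl3l, Rpl10l, Rpl39l, Rps4l and Rps27l), which leaves 75 genes of the standard ribosome.

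The animals were 5-day-old ICR mice, an outbred stock. Their mothers had received carbon black nanoparticles (CB-NP, ultrafine particles of nearly pure carbon) into the nose 2 times during gestation, on days 5 and 9, at a dose of 95 microg/kg, or distilled water at 1 mL/kg on the same days. Total RNA from spleens was pooled within each sex and treatment, which gave a male control, a male CB-NP, a female control and a female CB-NP pool, and each pool was read on 1 single-colour array. There was no replicate of any pool, so a difference within a sex has no biological spread to be set against. The scanner error, where given, is computed from the error deposited with each spot and holds no spread between animals or pools. With the brightest probes it was 0.20 for a difference of the standard genes in every comparison. For these genes a limit in scanner errors is therefore 1 fixed limit and not a precision measured for each gene. In whole-organ RNA, a smaller share of cells that carry a transcript and less of that transcript per cell cannot be told apart.

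Markers of other cells also differed between the pools. The labelled tissue was borne out: all 11 B cell, 10 T cell, 11 erythroid and 7 splenic stroma markers with a probe were well above background on every array. The median difference of the 11 B cell markers, CB-NP minus control, was 0.68 on the log2 scale in both sexes, and that of the 6 eosinophil markers was -2.47 in males and -2.23 in females. The 10 T cell markers had medians of 0.12 in males and 0.58 in females, and the 11 erythroid markers had -0.11 and -0.13. Of 15 markers of pancreatic acinar cells, a tissue that lies against the spleen, 13 were well above background in each control pool and 6 in each CB-NP pool, and their summed processed signal was 7704 and 7581 in the male and female controls against 586 and 546 in the CB-NP pools. The 10 neutrophil markers had a median difference of 0.13 in males and -0.37 in females. The part of these cells in the values of the ribosomal protein genes was not tested.

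Ribosomal proteins are made in step with ribosomal RNA and assembled with it in the nucleolus into a small subunit, which reads the mRNA, and a large subunit, which joins the amino acids. Vertebrate ribosomal protein mRNAs begin with a terminal oligopyrimidine (TOP) tract, a C followed by an unbroken run of C and U, through which mTORC1 and the RNA-binding protein Larp1 set how strongly they are translated. In the spleen of a newborn mouse, a blood-forming organ, dividing erythroid, myeloid and lymphoid precursors need many ribosomes, and inherited loss of single ribosomal proteins in humans leads to failure of red cell production (Diamond-Blackfan anaemia).

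Start sites are shown first, since a pyrimidine tract at the start is the hallmark of these mRNAs. The windows below, from RefSeq on GRCm38.p6, run from 60 bases before to 20 bases from the annotated start on, 5′ to 3′ on the gene's strand, with the longest run of C and T in the window, or both where 2 tie, in capitals. They were chosen to show members of the standard ribosome whose longest run spans the start (Rpl15, Rpl35, Rplp2, Rps24 and Rps27), standard members in which it does not (Rps2 and Rps12), and Rps27l and Rpl39l, paralogs of Rps27 and Rpl39.
Rpl15, chr14:18270967-18271046, minus strand: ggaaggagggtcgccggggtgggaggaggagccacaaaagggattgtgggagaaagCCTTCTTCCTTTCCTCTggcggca
Rpl35, chr2:39005112-39005191, minus strand: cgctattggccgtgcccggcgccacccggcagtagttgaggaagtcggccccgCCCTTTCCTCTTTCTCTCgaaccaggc
Rplp2, chr7:141447591-141447670, plus strand: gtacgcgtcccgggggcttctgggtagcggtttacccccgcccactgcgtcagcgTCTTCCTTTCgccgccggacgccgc
Rps24, chr14:24490618-24490697, plus strand: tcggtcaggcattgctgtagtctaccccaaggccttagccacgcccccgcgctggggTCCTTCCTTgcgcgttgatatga
Rps27, chr3:90213629-90213708, minus strand: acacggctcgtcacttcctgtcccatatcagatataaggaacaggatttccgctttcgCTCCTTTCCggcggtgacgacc
Rps2, chr17:24720003-24720082, plus strand: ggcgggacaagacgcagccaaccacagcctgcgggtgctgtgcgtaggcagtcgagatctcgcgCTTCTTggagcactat
Rps12, chr10:23787190-23787269, minus strand: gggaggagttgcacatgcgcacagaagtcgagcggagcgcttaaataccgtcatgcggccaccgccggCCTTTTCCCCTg
Rps27l, chr9:66946026-66946105, plus strand: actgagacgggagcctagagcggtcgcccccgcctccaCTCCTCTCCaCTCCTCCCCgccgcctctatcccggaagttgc
Rpl39l, chr16:10170168-10170247, plus strand: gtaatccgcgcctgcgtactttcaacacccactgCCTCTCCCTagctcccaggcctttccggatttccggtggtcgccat

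The run held 17 bases in Rpl15 and 18 in Rpl35, and it spans the annotated start in both. In Rplp2, Rps24 and Rps27 it held 10, 9 and 9 bases and also spans the start. The longest run lay after the start in Rps2 and Rps12, with 6 and 11 bases. Rps27l had 2 runs of 9 bases, the nearer of which ended 3 bases short of the start, and in Rpl39l a run of 9 bases began 26 bases before it. A longest run away from the annotated start was thus found in standard members and paralogs alike. Over the 73 RefSeq promoter entries found for 61 of the genes, the longest run of C and T within 50 bases of the start had a median of 10 bases, against 7 over all 32851 entries. A run of at least 10 bases was present in 65.8% of the entries of ribosomal protein genes and in 18.1% of all entries. A run of at least 10 bases that held the annotated start or a base next to it was present in 20.5% and 2.99%. The letters CTTTCC on the gene's strand were found in 38.4% of the 300-base promoters of these genes and in 14.1% of all promoters, CTCTTT in 35.6% and 12.1%, and CTTTTC in 19.2% and 11.4%. These motifs overlap the C and T runs. The letters CCGGAAG, on both strands, were found in 35.6% against 8.86%. TATAAA on the gene's strand was found in 8.22% against 8.32%. Long pyrimidine runs were thus more frequent at these starts than over all promoters, whereas TATAAA was about as frequent; a match of letters is a description of the sequence and not of a bound factor.

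Transcript levels are given, control before CB-NP and males before females, as the log2 of the processed signal minus the 75th percentile of the same array, and a difference is the level in 1 pool minus that in another. The 78 detected genes lay close together across all 4 pools. The median distance between a gene's highest and lowest pool was 0.11 on the log2 scale, 1.08-fold, against 0.29, 1.22-fold, over all genes detected on all arrays. Rps15a, a protein of the small subunit, had the narrowest distance, with levels of 7.81 and 7.81 in the male (control, then CB-NP) and 7.82 and 7.82 in the female pools. Rpl7, a protein of the large subunit, followed with 8.42, 8.41, 8.41 and 8.41 in the same order. Each gene was read with its brightest probe, and with it all 4 pools of Rps15a and of Rpl7 differed by no more than 0.02. Their other probes spread more. An Rps15a probe of nearly equal signal (77325 against 77925) gave CB-NP minus control differences of -0.05 in males and -0.13 in females. A much dimmer Rps15a probe (signal 35.2) gave -0.34 and -0.42. Dimmer Rpl7 probes gave -0.05, -0.04 and -0.15 in males and -0.03, -0.02 and -0.25 in females. Among the 75 standard genes the widest distance was that of Rps15, at 0.26. Its levels were 7.79 and 7.58 in the male control and CB-NP pools and 7.56 and 7.53 in the female control and CB-NP pools, so the male control was the highest and the other 3 lay close together. Only Rpl39l, at 0.59, and Rps4l, at 0.69, spanned more among the detected genes.

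**Figure D1:**
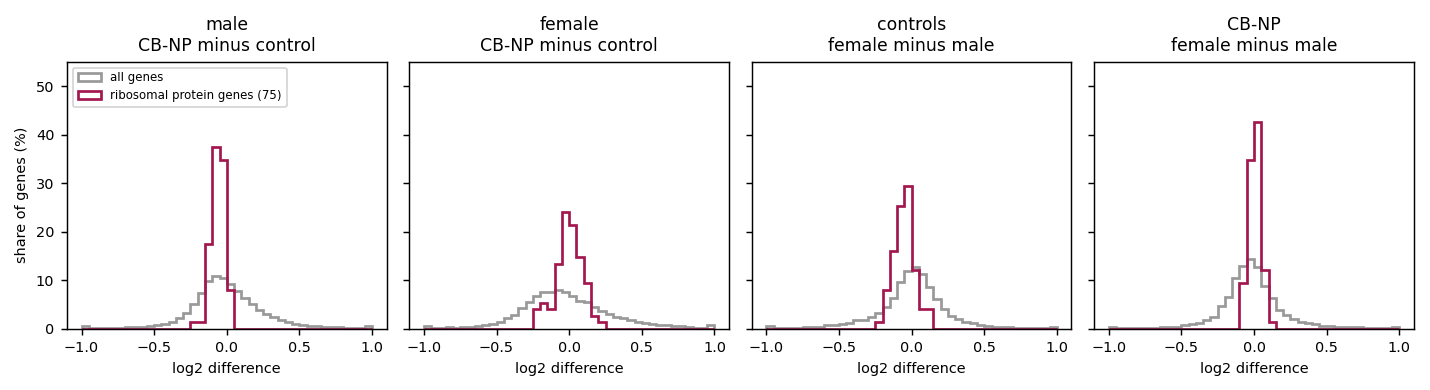
Share of genes (vertical axis, percent) by log2 difference (horizontal axis) for the 75 standard ribosomal protein genes and for all genes compared, in the 4 comparisons between pools; values past 1 either way are drawn in the end bins. The ribosomal protein genes form a narrow peak near 0 in each, with an SD of 0.05 in males and 0.10 in females for CB-NP minus control, against 0.30 and 0.34 over all genes.

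In males, the ribosomal protein genes of the CB-NP pool stayed close to those of the control pool. Their median difference was -0.06, 1.04-fold lower, and that of all genes was -0.02. Below 0 were 72 of 78 and above 0 were 6 (Rpl10a, Rpl12, Rpl13a, Rpl17, Rpl39 and Rps24), where 54.8% and 45.2% of all genes lay below and above 0. Most of the family is bright, and other bright genes also lay mostly below 0 in males. Outside the family, 14 of the 64 genes with a signal of at least 100000 were above 0, and 179 of the 910 between 10000 and 100000. The side of 0 depended on the scaling, since 63 of 78 lay above 0 after cyclic loess, 37 after quantile normalization or with the authors' deposited values, 20 with centring on the median and 3 after normexp background correction. Past 2 of its own scanner errors was 1 gene, Rps4l (lower), where 8.84% of all genes were past 2 errors in either direction. At least 0.5 apart was 1 gene, Rpl39l, where 6.63% of all genes were. No standard gene met either limit; their differences ran from -0.21 in Rps15 to 0.04 in Rps24, while the median scanner error of a difference was 0.20.

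In females, the ribosomal protein genes were again level between the pools but spread a little more. Their median difference, CB-NP minus control, was -0.00094, with 39 genes above 0 and 39 below, where 43.3% of all genes lay above 0 and their median was -0.04. Above 0 were 69 of 78 after cyclic loess, 65 with the authors' deposited values, 22 after normexp background correction and 8 with centring on the median, so the split had no settled direction. Past 2 scanner errors was 1 gene, Rps4l (higher), where 14.6% of all genes were. It was also the only gene at least 0.5 apart, where 10.2% of all genes were. The standard genes ran from -0.25 in Rpl5 to 0.21 in Rps24.

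Set side by side, both sexes gave small differences on either side of 0. Below 0 in both sexes were 37 of 78 genes, where 39.4% of all genes were, and below 0 in males but above 0 in females were 35, where 15.2% of all genes were. Across the 75 standard genes, the male and female differences had a Spearman correlation of 0.56 and a Pearson correlation of 0.55. Over all 78 genes these were 0.48 and -0.08, and over all 13933 genes 0.40 and 0.43; the points share the 4 arrays and each gene's probe, and genes are not independent replicates. The female difference was above the male one in 61 of the 75 standard genes, by a median of 0.05. Over all genes it was above in 5920 of 13933, with a median of -0.04. The order depended on the scaling. With centring on the median, the standard genes had a median difference of -0.02 in males and -0.11 in females. After normexp background correction these were -0.05 and -0.06, and after cyclic loess 0.06 and 0.13. The gap between the sexes was not tested.

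**Figure D2:**
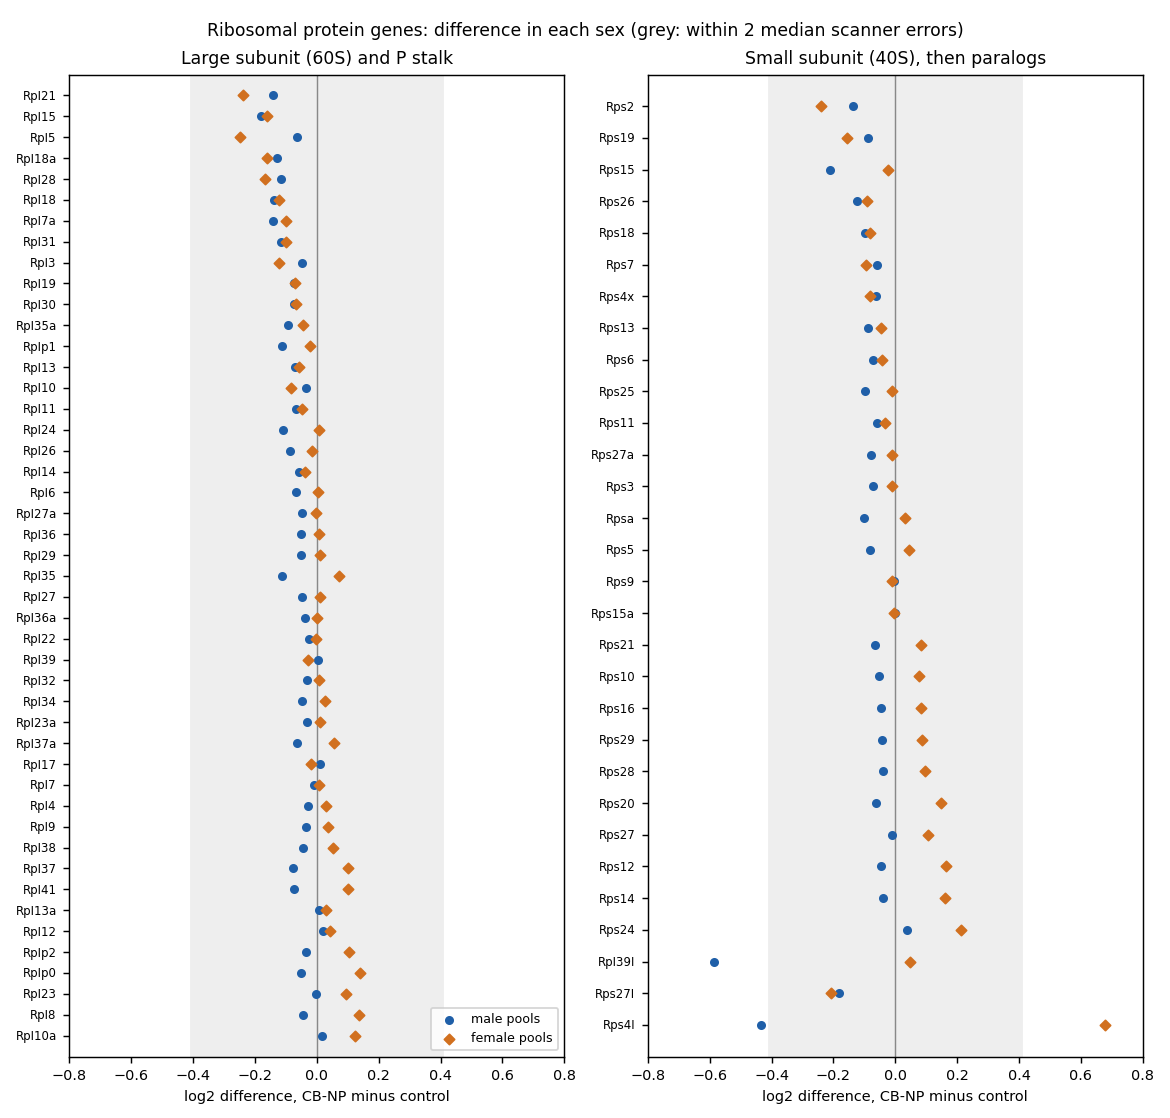
Log2 difference, CB-NP minus control (horizontal axis), of ribosomal protein genes detected on all 4 arrays in the male pools (circles) and in the female pools (diamonds), ordered by the mean of both; the grey band spans 2 median scanner errors either way. The standard genes drawn lie inside the band, from -0.25 in Rpl5 to 0.21 in Rps24, and Rpl39l and Rps4l lie outside it; Rpl39l is within 2 of its own, larger, scanner errors.

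Treatment was tested over both sexes with limma, which fitted treatment and sex to the 4 pools with 1 residual degree of freedom. None of the 78 genes was called at a Benjamini-Hochberg adjusted p under 0.05, where 0.0827% of the 14502 genes tested (12 genes) were. None reached an unadjusted p under 0.05 either, where 13.8% of all genes did. The smallest adjusted p among them was 0.40 in limma, that of Rps27l, at -0.20 with an SE of 0.09. No gene of the family was called for treatment in the limma fits under the other scalings and filters, and an intensity trend in the variance gave 4 genes, Rps27l, Rpl21, Rps2 and Rpl15, an unadjusted p under 0.05, all lower, with a smallest adjusted p of 0.14 in limma. Sex was tested in the same fit. No ribosomal protein gene was called, where 0.0276% of all genes (4 genes) were, none had an unadjusted p under 0.05, where 5.78% of all genes did, and the smallest adjusted p was 0.9996 in limma. With 4 pools and 1 residual degree of freedom, a p that misses the threshold does not show equal levels.

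The large subunit, with 43 standard genes apart from the stalk, had a median difference of -0.05 in males and 0.001 in females. The side of 0 changed with the scaling in both sexes: the median after cyclic loess was 0.06 in males and 0.13 in females, and with centring on the median it was -0.01 and -0.11. Rpl21 had the lowest mean of both differences among them. Its levels were 7.05 and 6.91 in the male and 7.12 and 6.88 in the female pools, so both CB-NP pools lay below both controls, by -0.14 in males and -0.24 in females. A dimmer probe for Rpl21 (signal 544.5) gave 0.03 in males and 0.22 in females, on the other side of 0. The dimmest Rpl21 probe (signal 36.9) gave -0.0017 in males and -0.51 in females, on the same side as the brightest. Rpl15 followed with 8.31, 8.13, 8.26 and 8.10 in the same order, differences of -0.18 and -0.16. A second, dimmer probe for Rpl15 gave 0.29 in males and -0.55 in females, so its 2 probes disagreed in males. Rpl10a stood at the other end, with levels of 9.12, 9.13, 9.02 and 9.14 and differences of 0.02 and 0.12. Rpl10a was lowest in the female control, and its other 3 pools lay close together.

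The small subunit, with 29 standard genes, had a median difference of -0.06 in males and -0.01 in females, and 0.05 and 0.12 after cyclic loess. Rps2, a protein at the entry of the mRNA channel, had levels of 8.14 and 8.01 in the male and 8.26 and 8.02 in the female pools. Both controls lay above both CB-NP pools, with differences of -0.14 and -0.24. Rps24 was the highest of the standard genes by the mean of both differences, at 0.04 in males and 0.21 in females. Its levels were 8.75, 8.79, 8.66 and 8.88 in the same order, so the female CB-NP pool was the highest and the female control the lowest. Dimmer Rps24 probes, with signals of 33200 and 19400, gave -0.075 and 0.21 in males and 0.02 and 0.25 in females. Rps12, Rps14 and Rps20 had the next largest gaps between the sexes after Rpl39l and Rps4l. Rps12 stood at 9.37 and 9.32 in the male control and CB-NP pools and at 9.27 and 9.43 in the female ones. Rps14, a protein of the platform of the small subunit, stood at 9.50 and 9.46 in males and 9.32 and 9.48 in females. Rps20 stood at 9.58 and 9.52 in males and 9.43 and 9.58 in females. In all 3 genes the female control was the lowest pool, and none of their differences exceeded the scanner error of 0.20.

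Rpsa, which sits on the small subunit and is also known as the laminin receptor, had levels of 9.27 and 9.17 in the male and 9.16 and 9.20 in the female pools. With the brightest probe only the male control stood apart, and the differences were -0.10 in males and 0.03 in females. Another Rpsa probe of nearly equal signal (202000 against 203500) gave levels of 9.19, 9.21, 9.10 and 9.27 in the same order. Its differences were 0.015 and 0.17, so the male control did not stand apart with it. Dimmer Rpsa probes, with signals of 32075 and 231.5, gave -0.13 and -0.19 in males and -0.17 and 0.11 in females. The acidic stalk of the large subunit, which recruits elongation factors, consists of Rplp0, Rplp1 and Rplp2. Rplp0, often used as a reference gene, had levels of 9.53, 9.48, 9.36 and 9.50 in the same order, differences of -0.05 and 0.14. Rplp1 had levels of 9.18, 9.07, 9.14 and 9.12, differences of -0.11 and -0.02. Rplp2 had levels of 9.21, 9.17, 9.09 and 9.20, differences of -0.04 and 0.10. With the brightest probe of each, both controls lay above both CB-NP pools in Rplp1 only. The stalk's median of 0.10 in females became -0.0073 with centring on the median. Dimmer Rplp0 probes, with signals of 154000 and 93725, gave -0.05 and -0.09 in males and -0.06 and -0.03 in females. With the probe of 93725, both Rplp0 controls also lay above both CB-NP pools.

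The genes whose human counterparts are mutated in Diamond-Blackfan anaemia bear on red cell production in this organ. Of 9 such genes listed here, 8 lay below 0 in males and 7 in females, with medians of -0.07 in both sexes. Of the whole family's 78 genes, 72 and 39 lay below 0, and of all genes 54.8% and 56.7%. The list of 9 is not complete, and its counts depend on which genes it holds. After cyclic loess 2 of the 9 lay below 0 in each sex, so their side of 0 depended on the scaling. The 11 erythroid markers had medians of -0.11 and -0.13. Of them 10 lay below 0 in males and 7 in females, with 1 and 4 above 0. The part of erythroid cells in the values of these genes was not tested. Rps19, the gene most often mutated, had levels of 7.13 and 7.04 in the male and 7.21 and 7.06 in the female pools. Its differences were -0.09 and -0.16, within 1 scanner error. Rpl5 and Rpl11 bind 5S ribosomal RNA and, when assembly fails, hold back Mdm2, the inhibitor of p53. Rpl5 had levels of 6.34, 6.27, 6.44 and 6.19, and its female difference of -0.25 was the lowest of the standard genes. Rpl11, its partner, had levels of 9.21, 9.14, 9.16 and 9.12, with differences of -0.07 and -0.05. Rps26, Rps7 and Rpl35a were below 0 in both sexes, between -0.04 and -0.12, and Rps10 had -0.05 in males and 0.08 in females. The 11 detected genes of the p53 pathway had medians of -0.03 and -0.06, with Cdkn1a, a cell cycle inhibitor induced by p53, at -0.23 in males and -0.19 in females.

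The control pools of both sexes also differed from each other by small values. Female minus male control gave a median of -0.05, with 15 of 78 above 0, where 52.4% of all genes lay above 0; the median turned to 0.07, with 67 above 0, when arrays were centred on the median, and 46 were above 0 after quantile normalization and 33 after normexp background correction. Past 2 scanner errors was 1 gene, Rps4l, where 8.25% of all genes were. Between the CB-NP pools, female minus male gave a median of 0.01 with 44 above 0, where 43.0% of all genes lay above 0, and 21 above 0 when arrays were centred on the median. Again Rps4l alone was past 2 scanner errors, where 5.61% of all genes were. The 2 sex comparisons and the 2 treatment comparisons share their 4 pools.

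With the brightest probe of each, the 4 genes on the X chromosome gave flat values between the sexes. Rps4x, the X-linked form of the small-subunit protein S4, had levels of 7.26 and 7.20 in the male and 7.28 and 7.20 in the female pools. Rpl10, at the peptidyl transferase side of the large subunit, had 9.25, 9.21, 9.21 and 9.13. Rpl39, which lines the exit tunnel, had 7.87, 7.88, 7.85 and 7.82, and Rpl36a had 7.37, 7.33, 7.34 and 7.34. The female minus male difference of these genes was between -0.03 and 0.02 in the controls and between -0.08 and 0.01 in the CB-NP pools. Other bright probes were less flat between the controls. Rpl10 probes with signals of 164750 and 156000 gave -0.14 and -0.18, and an Rpl39 probe of 74800 gave -0.12. The same Rpl10 probes gave 0.09 and 0.12 for CB-NP minus control in females, against -0.08 with the brightest.

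Paralogs can replace or accompany a standard protein in some tissues. Rps4l in both sexes and Rpl39l in males gave the largest differences among the detected genes of the family. The differences of Rps27l lay within the range of the standard genes. Rps4l, a paralog of Rps4x that RefSeq lists as a transcribed pseudogene, had processed signals of 895 and 672 in the male and 648 and 839 in the female pools. On the log2 scale these were levels of 1.42, 0.98, 0.72 and 1.40, so the male control and the female CB-NP pool were high and the other 2 low. The difference was -0.43 in males and 0.68 in females, each past 2 scanner errors, and lay between -0.43 and -0.36 and between 0.57 and 0.77 under the other settings. The male difference was within 2 scanner errors after normexp background correction, with centring on the median and with the authors' deposited values. Rpl39l, a paralog of Rpl39 known from the testis, had signals of 29.3, 19.8, 28.6 and 23.9 in the same order, near the lower end of detection. Its difference of -0.59 in males was within 2 of its own scanner errors of 0.30, and it was -0.20 after normexp background correction; in females it was 0.05, and 0.39 after that correction.

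Rps27l, a paralog of Rps27 that p53 can induce, had levels of 6.31 and 6.13 in the male and 6.27 and 6.06 in the female pools. Both control pools lay above both CB-NP pools, with differences of -0.18 and -0.21, each about the size of 1 scanner error. Rps27 itself had levels of 8.83, 8.81, 8.76 and 8.87, differences of -0.01 and 0.11, and did not separate the pools by treatment. Rpl3l, a paralog of Rpl3 known from muscle, and Rpl10l, a paralog of Rpl10 known from the testis, were not well above background in any pool, and no fold is given for them.

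**Figure D3:**
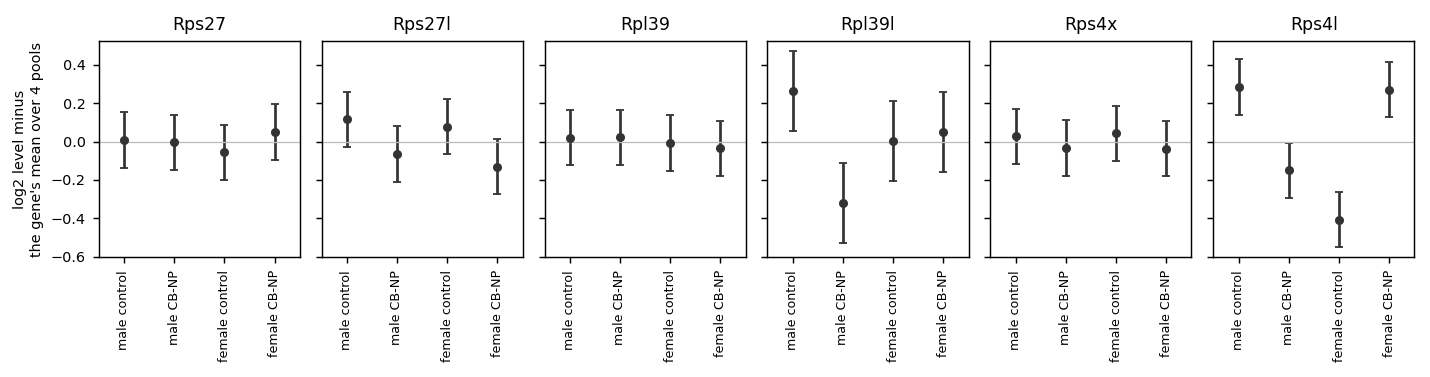
Log2 level minus the gene's own mean over the 4 pools (vertical axis) of 3 paralogs and of the standard gene each resembles, in the 4 pools; bars are 1 scanner error either way. Rps27, Rpl39 and Rps4x are flat, Rps27l is lower in both CB-NP pools (-0.18 and -0.21), and Rps4l is lower in the male (-0.43) and higher in the female CB-NP pool (0.68).

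The brightness of a probe went along with the small differences that remained. The array carried 168 probes for the family, and 51 genes had more than 1. Across the brightest probes of the 75 standard genes, the female difference had a Spearman correlation of 0.63 with log signal, the male difference one of 0.22, and the female minus male control difference one of -0.73. The first and last of these share the female control array, and all points share the arrays and the probe design. The 45 standard genes with a mean signal of at least 100000 had a female median of 0.04, with 31 above 0, and the 30 dimmer ones had -0.04, with 6 above 0. Genes outside the family showed the same order: the 64 with a signal of at least 100000 had a female median of 0.15, and the 910 between 10000 and 100000 had -0.13. Male medians were -0.04 and -0.095 in these 2 sets, and -0.05 and -0.07 in the 45 brighter and 30 dimmer standard genes. In 43 genes with several probes of at least 10000, the brightest probe gave a higher female difference than the dimmest in 36 and a higher male difference in 33. Over all 49 genes with several probes detected on all arrays, whatever their signal (an alternative chosen after seeing the data), these counts were 37 and 31.

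Within a range of signal the family also spread less than other genes, as a description with no test. Among genes of at least 100000, the SD of the male difference was 0.04 over the 45 ribosomal protein genes and 0.08 over the 64 other genes, and that of the female difference was 0.08 and 0.19. Brightest probes of the 30 dimmer standard genes had an SD of 0.05 in males and 0.09 in females, against 0.16 and 0.21 over the 910 other genes between 10000 and 100000. Among further probes for detected genes, the third probe of Rps27a lay over 0.5 from the brightest one. Rps27a, which encodes ubiquitin fused to a ribosomal protein, gave -0.71 in females with that probe, whose signal was only 54.6, against -0.01 with the brightest.

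**Figure D4:**
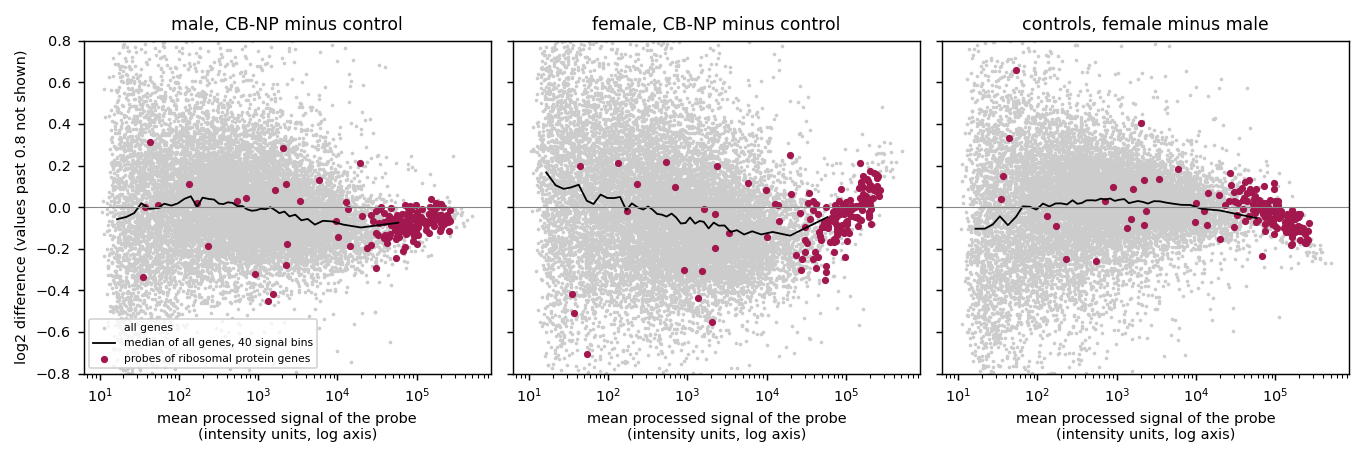
Log2 difference (vertical axis) against the mean processed signal of the probe (horizontal log axis, intensity units) for all genes (grey), the median of all genes in signal bins (line) and each probe of the standard ribosomal protein genes detected on all arrays (red), in 3 comparisons. In females, probes of at least 100000 lie mostly above 0 (43 of 64) and those from 10000 to 100000 mostly below (15 of 77 above 0), and the order is turned between the controls.

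Genes that build ribosomes, and the ribosome of mitochondria, lay lower in both CB-NP pools than the cytosolic ribosomal proteins did. The mitochondrial ribosomal proteins, which translate the few mRNAs of the organelle, had a median of -0.12 in males, with 67 of 74 below 0, and of -0.25 in females, with 72 of 74 below 0, beside 54.8% and 56.7% of all genes. Their female median minus that of the 75 standard cytosolic genes was -0.25, and between -0.29 and -0.16 under the other scalings; in males it was -0.06, and between -0.14 and -0.06. Mrps11 had the lowest mean of both differences, with -0.60 in each sex, and Mrpl24 the highest, with 0.05 and 0.09. The 38 nucleolar assembly factors had medians of -0.10 and -0.24, with 29 and 37 below 0. Among them Nop14, needed for the small subunit, had -0.31 and -0.58, and Gnl3, the nucleolar protein nucleostemin, had -0.23 and -0.53, while Ppan had 0.12 and 0.14. The 11 genes of RNA polymerase I and its factors, which transcribe ribosomal RNA, had medians of -0.10 and -0.18, with Ubtf at -0.15 and -0.04 and Polr1e at -0.06 and -0.49. The medians of these lists were below 0 in both sexes under each scaling tried. These gaps between lists were not tested.

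Other mRNAs with a TOP tract also lay mostly below 0 in both sexes. The 17 genes had medians of -0.07 in males and -0.14 in females, with 15 and 14 below 0, beside 54.8% and 56.7% of all genes. Their male median was 0.0047 after cyclic loess and 0.015 after quantile normalization. Bright genes outside the family lay mostly below 0 too. Of the 910 with a signal of 10000 to 100000, 179 in males and 197 in females were above 0, with medians of -0.095 and -0.13. The part of signal in the counts of these lists was not tested. Eif3e, a subunit of initiation factor eIF3, had -0.26 and -0.66, Eef1g, of the elongation factor complex, had -0.21 and -0.33, and Pabpc1, which binds poly(A) tails, had -0.04 and 0.06. Of the 19 genes for mTORC1, Larp1, Myc and mTORC1 targets, 13 and 15 were below 0, beside 54.8% and 56.7% of all genes, with medians of -0.09 and -0.18. Larp1 had -0.31 and -0.26, Mtor had -0.18 and -0.41, and Rps6kb1, the kinase of ribosomal protein S6, had -0.10 in males and 0.43 in females. The 12 cell cycle genes had medians of -0.20 and -0.26, and 11 and 12 of them were below 0, where 54.8% and 56.7% of all genes were. In limma none of the genes in these lists passed an adjusted p of 0.05 for treatment; unadjusted p under 0.05 was reached, all lower, by 10 of 74 mitochondrial ribosomal genes, 5 of 38 assembly factors, 4 of 12 cell cycle genes, 2 of 19 regulators and 1 of 17 other TOP mRNAs, and by none of RNA polymerase I, where 13.8% of all genes reached it in either direction. Apart from the cell cycle genes, none of these lists exceeded that share; no list was tested as a whole.

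**Figure D5:**
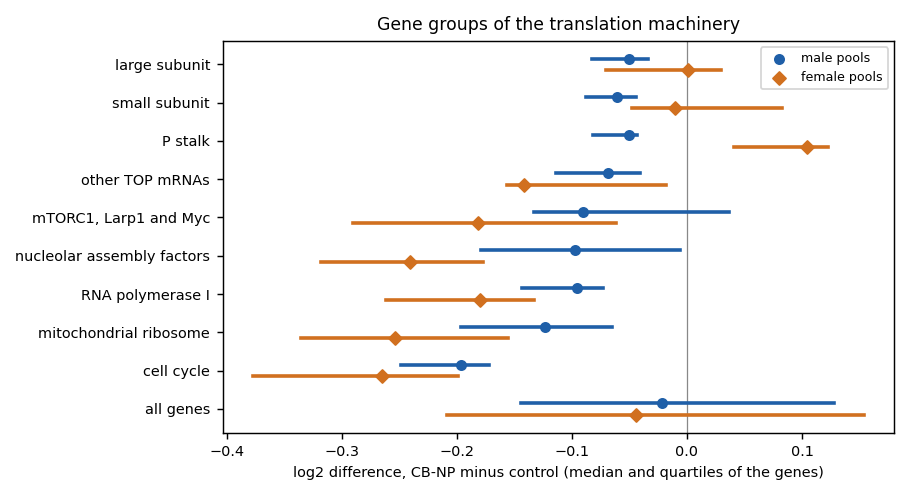
Median log2 difference, CB-NP minus control (horizontal axis), of gene groups of the translation machinery and of all genes in male pools (circles) and female pools (diamonds); bars span the quartiles. Both subunits sit near 0 (their side of 0 changes with the scaling), while the mitochondrial ribosome (-0.12 and -0.25), the assembly factors (-0.10 and -0.24) and the cell cycle genes (-0.20 and -0.26) lie below it in both sexes.

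Some genes for ribosomal proteins do not match the naming rule. Rack1, which binds the small subunit, had -0.08 in males and 0.10 in females, and Fau, which encodes a protein of the small subunit, had -0.04 and 0.14. Of 7 such genes or paralogs, all 7 lay below 0 in males and 4 in females, with medians of -0.08 in each sex, beside 72 and 39 of the family's 78 and 54.8% and 56.7% of all genes; after cyclic loess 3 and 2 of the 7 lay below 0.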

How the data were processed

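Spleen RNA pools were read on 4 arrays of Agilent design 028005 (mm9), 1 per group, and extracted in Agilent Feature Extraction (version 10.10.1.1), per the file headers. The deposited processed signal is an intensity from which, per the file headers, background was subtracted and a spatial trend removed, without normalization between arrays. Its propagated error and the raw median spot and background signals are deposited intensities too. Other deposited values are flags of 0 or 1. The authors' value table, an intensity, was that signal multiplied by a constant for each array (3.10, 3.18, 2.64 and 3.49); its target is not stated, and its column medians were 75.2, 76.1, 68.9 and 79.4. Its scale is linear. Each array had 59305 non-control spots, of which 57.3% to 59.0% were well above background and 0 were saturated, and 75th percentiles ran from 317 to 392. The number of arrays limits the precision.

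Here each array's 75th percentile over non-control spots was subtracted from the log2 signal, outlier spots were left out, and each gene's brightest probe was used. Genes were named by RefSeq accession (GRCm38.p6, used for names and promoter sequences), and 26762 probes matched. Within a sex a gene was compared when well above background on both arrays, without a test. limma 3.58.1 (R 4.3.3) fitted treatment and sex to 14502 genes that 2 or more arrays detected; p-values were adjusted by Benjamini-Hochberg (threshold 0.05), and the script was tested on simulated data. Python 3.11.15 with pandas 2.3.3 and numpy 2.4.6 did the rest.

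The members and gene lists were chosen with earlier results of these data known. Genes named in full were, by rule, the stalk, Rpsa, the X-linked genes, the paralogs, the Diamond-Blackfan genes and the extremes of difference, of sex gap and of signal; from other lists, up to 3 at each end. Not every gene of the rule is named. A few were named by role. The design assumed a mean-pixel signal; the files give the median-pixel signal, used for normexp (offset 50). Alternatives were normexp, quantile normalization, cyclic loess, centring on the median, the authors' values, other probe and detection choices and other limma settings. Probe sequences were not used here. Single values of a few genes are not reported here.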

Additional observations from a re-analysis of the deposited data

Results flagged for a closer look

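Rps4l differed between the sexes in the direction of its difference: CB-NP minus control was -0.43 on the log2 scale in males and 0.68 in females, a gap of 1.11 between both values. With 1 pool per group each sex is a single pair of pools, and the gap was not tested. Whether its probe also reads RNA of Rps4x was not tested. No group held enough samples to look for a sample far from the others.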

How the results depend on the processing

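Of 112 recomputed summary values, 90 stayed within the limits set for them, 22 moved and none reversed a call; of 952 values for 32 named genes, 12 moved. A median counted as moved past the SD over the 75 standard genes, and a count past 1.5 times. The male median of the 78 genes was 0 after quantile normalization, 0.058 after cyclic loess and -0.0024 with the authors' deposited values; the female median was 0.13 after cyclic loess and -0.11 with centring on the median; the control female minus male median was 0.065 with centring on the median. Genes above 0 in males were 3 (normexp), 37 (quantile), 63 (cyclic loess), 20 (median centring) and 37 (authors' values); in females 22 (normexp), 69 (cyclic loess), 8 (median centring), 65 (authors' values) and 18 of 49 (second brightest probe); between controls 33 (normexp), 46 (quantile), 67 (median centring) and 24 (median over all probes); between CB-NP pools 21 (median centring) and 19 of 49 (second brightest probe). Centring on the median moved the median of all genes from -0.04 to -0.16 in females and from 0.01 to 0.13 between controls; by construction it shifts all genes of an array alike, and for the other settings the cause was not tested. Without the 5 paralogs, an alternative chosen after seeing the data, no gene was past 2 scanner errors in any comparison. Calls over all genes for treatment in limma, 12 as reported, were 612 with normexp, 347 with median centring, 381 with an intensity trend, and 0 to 9 under the others; for sex, 4 as reported, they were 77, 181, 16 and 0 to 4. In each fit, 0 were ribosomal protein genes. No paired analysis was possible because each group is a single pool with no replicate number. Depth limits Rpl39l, Rpl3l and Rpl10l, whose signals lay near background.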
